A study of Mus musculus with 9 samples.

Results

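The BCL2 family of proteins decides whether the outer mitochondrial membrane is opened during apoptosis. Here 10 of its genes were followed across 3 groups of cells labelled as an endothelial line. They were the anti-apoptotic Bcl2, Bcl2l1 and Mcl1, the effectors Bax and Bak1, and the BH3-only genes Bid, Bad, Bcl2l11, Bbc3 and Pmaip1. The members were taken by gene name from a table of 54532 genes, and each name was found at a single row. The cells were labelled as b.End3, an immortalized mouse brain endothelial line, and as C57BL/6 (a protocol note calls the cells rat, while the gene identifiers are those of mouse). Messenger RNA was sequenced in 9 libraries. Ctrl cells (3 libraries) received neither drug nor light. Ep1 and Ep2 cells (3 libraries each) received photodynamic therapy (PDT), in which a photosensitizer turns light into reactive oxygen species: porfimer sodium at 300 µg/mL for 90 min, then a 635 nm laser at 100 mW/cm2, to a light dose of 10 J/cm2 in Ep1 and 20 J/cm2 in Ep2. Cells given only the drug or only the light were not analysed here, so the drug, the light and their combination cannot be told apart, and the time from light to RNA extraction is not given in the sources used here. All groups came from 1 cell line, and nothing says that the libraries of a group were separate cultures, so the p-values measure only the spread between these libraries, which may be technical.

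In the resting cell, BCL2, BCL-XL (the product of Bcl2l1) and MCL1 hold the effectors BAX and BAK in check. BH3-only proteins such as BIM (Bcl2l11), PUMA (Bbc3), NOXA (Pmaip1), BAD and BID carry stress signals to the mitochondrion, where they occupy the anti-apoptotic proteins or engage the effectors, and active BAX and BAK form pores through which cytochrome c leaves. Much of this control acts on the proteins (phosphorylation, cleavage, rapid turnover of MCL1), which RNA levels do not show. Mitochondrial membranes are a known site of damage by porphyrin photosensitizers, and endothelial cells are a known target of PDT in tumor vessels.

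The deposited values were FPKM, a fragment count scaled to gene length and library size. From 16240688 to 19509225 fragments were assigned to genes in each library, and the depth ranges of the 3 groups overlapped. The endothelial label had little support from defining markers. Of 14 endothelial genes only Flt1, Eng and Egfl7 passed the filter on low values, 10 stayed below 1 FPKM in every library, and Emcn and Robo4 were at 0. Pecam1, Kdr, Tek, Vwf and Cldn5 reached at most 0.24, 0.06, 0.11, 0.18 and 0.08 FPKM, and Cdh5 read 0.52 to 1.09 FPKM. The summed FPKM of the 14 genes was 11.4 to 11.9 in Ctrl, 11.3 to 13.1 in Ep1 and 14.5 to 15.5 in Ep2, most of it Flt1. Epithelial markers summed to 1029 to 1081 FPKM in Ctrl, 937 to 1041 in Ep1 and 1155 to 1372 in Ep2, and 4 of the 8 genes passed the filter: the keratins Krt8, Krt18 and Krt19, which made up almost all of the sum, and Epcam at 0.61 to 2.03 FPKM. Of the other 4, Krt7 and Esrp1 were at 0, Cdh1 was at most 0.10 FPKM and Cldn4 at most 0.18. For pericyte and smooth muscle, fibroblast, astrocyte and leukocyte markers, 1 of 8, 2 of 6, 0 of 5 and 1 of 6 genes passed the filter. Fibroblast markers summed to 41.7 to 43.8 FPKM in Ctrl, 37.1 to 42.1 in Ep1 and 41.2 to 49.6 in Ep2. This exceeded the endothelial sum and was mostly Col3a1, while Dcn and Lum were at most 0.04 and 0.05 FPKM. Leukocyte markers summed to 10.3 to 11.8 FPKM in Ctrl, mostly Cd14. The endothelial and epithelial sums were higher in every Ep2 library than in any Ctrl library, and their part in the results was not tested. In bulk RNA, fewer cells of a type and less RNA per cell cannot be told apart.

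Before any treatment, the family was dominated by 3 genes. In Ctrl, Mcl1 stood at 96.5 ± 3.95 FPKM (mean ± SD, n = 3), Bax at 64.2 ± 0.599 and Bak1 at 61.2 ± 3.12, placing them at percentiles 95.8, 92.9 and 92.7 of all tested genes. Bad (15.0 ± 0.828), Bcl2l1 (13.9 ± 0.608), Bid (10.3 ± 0.244), Bbc3 (8.03 ± 0.612) and Bcl2l11 (7.31 ± 0.112) formed a middle range between percentiles 48.0 and 68.3. Within this order Bax and Bak1 overlapped between libraries, as did Bad with Bcl2l1 and Bbc3 with Bcl2l11. Pmaip1 was low at 2.30 ± 0.197 FPKM (percentile 19.3). Bcl2 itself was scarcely expressed, with 0.322 ± 0.0388 FPKM from 51 to 62 fragments a library. The anti-apoptotic RNA of these cells was thus mostly Mcl1, which made up 86.6 to 88.1% of the summed FPKM of the 3 anti-apoptotic members in Ctrl.

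**Figure D1:**
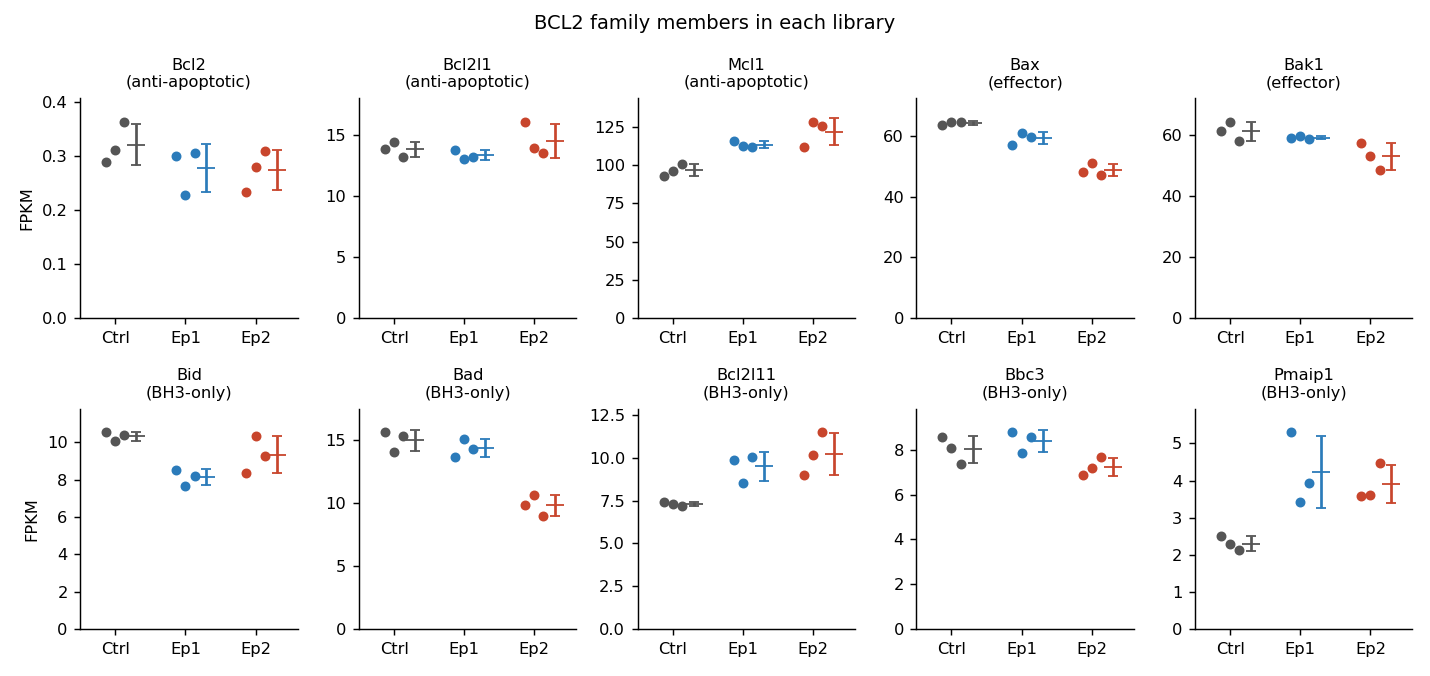
FPKM of each of the 10 members (vertical axes, each starting at 0 with its own scale) in the 3 libraries of Ctrl, Ep1 and Ep2; points are libraries and the bar beside them is the mean ± SD. Mcl1, Bcl2l11 and Pmaip1 lie above Ctrl in every Ep1 and Ep2 library, Bax and Bad are lowest in Ep2, and Bcl2l1 and Bcl2 overlap between all groups.

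The genes that moved in opposite directions at 20 J/cm2 are introduced by the sequence upstream of their starts. The 250 bases before the RefSeq start on GRCm38.p6 are printed for Mcl1 (chr3:95658471-95658720, plus strand) and Bcl2l11 (chr2:128125788-128126037, plus strand), which rose, and for Bax (chr7:45466899-45467148, minus strand) and Bad (chr19:6941611-6941860, plus strand), which fell. Each is written 5′ to 3′ on the strand of the gene, and capitals mark matches to the motifs named below them.
Mcl1: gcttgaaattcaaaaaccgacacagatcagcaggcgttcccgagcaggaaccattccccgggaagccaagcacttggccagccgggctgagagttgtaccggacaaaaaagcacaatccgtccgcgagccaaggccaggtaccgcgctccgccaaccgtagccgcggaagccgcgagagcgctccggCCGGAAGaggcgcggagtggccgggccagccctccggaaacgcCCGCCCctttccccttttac
Bcl2l11: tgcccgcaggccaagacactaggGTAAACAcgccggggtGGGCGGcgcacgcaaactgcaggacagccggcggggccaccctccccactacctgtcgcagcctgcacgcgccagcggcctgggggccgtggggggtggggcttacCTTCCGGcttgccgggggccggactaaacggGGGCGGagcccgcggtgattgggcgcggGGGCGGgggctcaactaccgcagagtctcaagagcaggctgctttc
Bax: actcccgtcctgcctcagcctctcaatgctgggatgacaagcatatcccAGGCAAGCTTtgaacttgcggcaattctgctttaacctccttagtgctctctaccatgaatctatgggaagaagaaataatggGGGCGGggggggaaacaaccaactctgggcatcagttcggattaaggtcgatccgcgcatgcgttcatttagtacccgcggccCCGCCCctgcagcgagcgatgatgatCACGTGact
Bad: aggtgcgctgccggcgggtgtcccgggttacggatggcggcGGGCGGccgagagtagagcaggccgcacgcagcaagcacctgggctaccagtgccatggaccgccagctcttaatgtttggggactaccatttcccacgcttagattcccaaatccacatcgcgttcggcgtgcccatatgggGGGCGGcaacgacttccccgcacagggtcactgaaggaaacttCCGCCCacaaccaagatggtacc

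The set of RefSeq windows used here covered 9 of the 10 members. Pmaip1 was not in it and was not searched. The window nearest to the listed gene start was used, which lay 1190 bases from that start for Bbc3, 382 for Bak1 and at most 67 for the others. Both strands were searched for 12 motifs, none of which overlapped another in the printed windows. The GC box GGGCGG, bound by SP1 and KLF factors, occurred 1 time in Mcl1, 2 times in Bax and 3 times each in Bcl2l11 and Bad on either strand (CCGCCC where it lies on the opposite strand), and it is found in 32.7% of all 32851 RefSeq windows of this length. Bcl2l11 held the FOXO site TGTTTAC at 227 to 221 bases before its start, on the strand opposite to the printed one (GTAAACA), a motif present in 3.17% of windows. The ETS site CCGGAAG occurred in Mcl1 at 63 to 57 bases and in Bcl2l11, on the opposite strand as CTTCCGG, at 105 to 99 bases before the start (6.91% of windows). Bax held the E-box CACGTG, bound by MYC and USF factors, at 9 to 4 bases (6.02% of windows) and a decamer of the p53 response element at 201 to 192 bases (7.13% of windows). The cAMP response element TGACGTCA (1.55% of windows), the AP-1 site TGANTCA (6.75%), the ATF4 composite site TGATGNAAT (0.816%), the E2F sites TTTCCCGC (0.895%) and TTTGGCGC (0.417%), the antioxidant response element TGACNNNGC (10.2%) and the CArG box (1.47%) had no match in any of the 9 members' windows. A match is a description of letters only.

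The comparison of Ep1 with Ctrl asked what changed at the lower light dose. Mcl1, Bcl2l11 and Pmaip1 rose and Bid fell, so that anti-apoptotic and pro-apoptotic members rose side by side. With limma on log2(FPKM + 1) and Benjamini-Hochberg adjustment over 11727 genes, 4 of the 9 tested members passed an adjusted p of 0.05 (3 higher, 1 lower), against 11.3% of all tested genes (6.32% higher, 4.97% lower). The median log2 fold change was -0.05 over the 9 members and -0.01 over all tested genes. The 9 members had more than 1 FPKM in every library, and Bcl2 was the member not tested.

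Pmaip1 encodes NOXA, a BH3-only protein that binds mainly MCL1. Its FPKM was 2.51, 2.28 and 2.12 in Ctrl and 5.30, 3.42 and 3.93 in Ep1. All 3 Ep1 libraries lay above all Ctrl libraries, and Ep1 replicate 1 was the highest of the 9. The log2 fold change on the log2(FPKM + 1) scale was 0.65 (95% CI 0.36 to 0.93, limma adjusted p = 0.0163), which understates the change of a gene this low: the ratio of mean FPKM was 1.83. In the fit of all 9 libraries on this scale, Pmaip1 was the only member past both the adjusted p and a log2 fold change of 0.6 in any comparison. That mark was reached by 0.793% of tested genes in Ep1. Without Ep1 replicate 1 its log2 fold change was 0.50 (limma adjusted p = 0.0430), below 0.6. It rests on 104 to 259 fragments a library.

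Bcl2l11 encodes BIM, which binds every anti-apoptotic member and can engage BAX and BAK. Its FPKM was 7.42, 7.31 and 7.20 in Ctrl and 9.88, 8.55 and 10.1 in Ep1, without overlap. The log2 fold change was 0.33 (95% CI 0.15 to 0.52, limma adjusted p = 0.0358). Mcl1, whose short-lived product restrains BAK and BIM, read 93.0, 95.7 and 101 FPKM in Ctrl and 116, 112 and 112 in Ep1. The Ep1 libraries were again all higher, by 0.23 on the log2 scale (95% CI 0.10 to 0.35, limma adjusted p = 0.0340).

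Bid encodes a BH3-only protein that caspase-8 cleaves to link death receptors to the mitochondrion. It was the member that fell, from 10.5, 10.1 and 10.4 FPKM in Ctrl to 8.53, 7.68 and 8.21 in Ep1. The groups did not overlap, and the log2 fold change was -0.31 (95% CI -0.47 to -0.15, limma adjusted p = 0.0274). Bid shares 913 bases with Bcl2l13 on the opposite strand (7.04 to 8.39 FPKM) and 2094 bases with Gm44260 on its own strand (0.23 to 0.97 FPKM), and whether the counting used strand is not given in the sources used here.

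The other 5 tested members did not pass at 10 J/cm2. Bax read 63.5, 64.4 and 64.7 FPKM in Ctrl and 56.9, 60.9 and 59.7 in Ep1, with no overlap, and its log2 fold change of -0.12 had a 95% CI of -0.21 to -0.02 (limma adjusted p = 0.111). The intervals of the remaining 4 spanned 0: -0.19 to 0.09 for Bak1, -0.21 to 0.10 for Bad, -0.19 to 0.10 for Bcl2l1 and -0.09 to 0.21 for Bbc3. Including Bax, 5 members had no overlap between Ep1 and Ctrl libraries (3 higher, 2 lower), against 41.3% of tested genes (20.8% higher, 20.5% lower).

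The Ep1 calls depended on having all 6 libraries. Leaving out Ctrl replicate 1, 2 or 3 left 1, 0 and 2 members past the limma adjusted p, and leaving out Ep1 replicate 1, 2 or 3 left 1, 2 and 0, while 4 or 5 members stayed under an unadjusted p of 0.05 each time. Bid lost its call in 6 of 6 of these fits (adjusted p 0.0582 to 0.0901), Mcl1 in 5 (up to 0.1197), Bcl2l11 in 5 (up to 0.124) and Pmaip1 in 2 (0.0705 without Ctrl replicate 2 and 0.0556 without Ep1 replicate 3). Testing all 26717 expressed genes without a filter also left 0 members, with 5 under an unadjusted p of 0.05, and voom on the recovered fragments called 4. Directions did not change in any of these fits for the 4 called members.

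The comparison of Ep2 with Ctrl covers the higher light dose, where both effectors and Bad fell while Mcl1, Bcl2l11 and Pmaip1 were again higher. Of the 9 tested members, 6 passed (3 higher, 3 lower), against 53.2% of all tested genes (23.9% higher, 29.3% lower), so calls were common among all genes as well. The median log2 fold change was -0.13 over the 9 members and -0.03 over all tested genes. In this fit, with 1 added to FPKM, no member passed a log2 fold change of 0.6, which 9.17% of tested genes did together with the adjusted p. That depended on the scale: in alternatives that left out no library, the change reached up to 0.75 for Pmaip1 and -0.61 for Bad.

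Bad encodes a BH3-only protein that binds BCL-XL and BCL2 and is held inactive by phosphorylation under growth factor signaling. Its FPKM was 15.6, 14.1 and 15.3 in Ctrl, 13.7, 15.1 and 14.3 in Ep1, and 9.88, 10.6 and 8.94 in Ep2. Ctrl and Ep1 overlapped, and every Ep2 library lay below both. Bad fell by 0.57 on the log2 scale from Ctrl to Ep2 (95% CI -0.72 to -0.41, limma adjusted p = 0.000122), a ratio of mean FPKM of 0.655 and the widest fall among the members. It shares 590 bases with Gpr137 on the opposite strand, which read 4.76 to 8.13 FPKM.

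Bax and Bak1 encode the pore-forming effectors. Bax read 48.1, 51.0 and 47.0 FPKM in Ep2, below every Ctrl and Ep1 library. It fell by 0.39 on the log2 scale (95% CI -0.49 to -0.30, limma adjusted p = 7.6e-05), the smallest adjusted p among the members. Bak1 read 61.2, 64.3 and 58.1 FPKM in Ctrl, 59.0, 59.5 and 58.7 in Ep1, and 57.3, 52.96 and 48.6 in Ep2. Its Ep2 libraries were all lower, with Ep2 replicate 1 close to Ctrl replicate 3. Bak1 fell by 0.21 (95% CI -0.34 to -0.07, limma adjusted p = 0.0164), and the call was lost without Ctrl replicate 2 (adjusted p = 0.0667). Bak1 lies wholly within Ggnbp1 on the opposite strand, which had at most 0.42 FPKM.

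Among the members that rose, Mcl1 reached 111, 128 and 125 FPKM in Ep2. All lay above Ctrl, with Ep2 replicate 1 at the level of Ep1, and the log2 fold change was 0.33 (95% CI 0.20 to 0.46, limma adjusted p = 0.000957). Bcl2l11 read 9.02, 10.1 and 11.5 FPKM, or 0.43 above Ctrl on the log2 scale (95% CI 0.24 to 0.62, limma adjusted p = 0.00214). Pmaip1 read 3.59, 3.62 and 4.48 FPKM, or 0.57 above Ctrl (95% CI 0.28 to 0.85, limma adjusted p = 0.00437). No Ep2 library of either gene overlapped with Ctrl. In all, 6 members had no overlap between Ep2 and Ctrl (3 higher, 3 lower), against 59.7% of tested genes (27.0% higher, 32.7% lower).

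Bid, Bbc3 and Bcl2l1 did not pass in Ep2. Bid read 8.35, 10.3 and 9.28 FPKM, and its difference from Ctrl was -0.14 on the log2 scale (95% CI -0.30 to 0.02, limma adjusted p = 0.133). Ep2 replicate 2 stood at the Ctrl level, and without it Bid passed (-0.21, adjusted p = 0.0270). Bbc3 encodes PUMA, a p53 target that binds all anti-apoptotic members, and read 8.59, 8.11 and 7.38 FPKM in Ctrl, 8.80, 7.86 and 8.57 in Ep1, and 6.89, 7.20 and 7.68 in Ep2. Its difference of -0.13 between Ep2 and Ctrl had a 95% CI of -0.28 to 0.02 (limma adjusted p = 0.134).

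Bcl2l1 encodes BCL-XL, the anti-apoptotic member that restrains both effectors. It read 13.9, 14.4 and 13.2 FPKM in Ctrl, 13.8, 13.1 and 13.2 in Ep1, and 16.1, 13.9 and 13.6 in Ep2. The groups overlapped, with a single high value in Ep2 replicate 1, and the difference between Ep2 and Ctrl was 0.06 (95% CI -0.08 to 0.21, limma adjusted p = 0.446). Bcl2 read 0.289, 0.313 and 0.365 FPKM in Ctrl, 0.302, 0.228 and 0.306 in Ep1, and 0.235, 0.280 and 0.309 in Ep2, which is 35 to 62 fragments a library. With voom on those fragments the Bcl2 difference was -0.20 in Ep1 (95% CI -0.65 to 0.25, adjusted p = 0.582) and -0.22 in Ep2 (95% CI -0.67 to 0.22, adjusted p = 0.408), so a change of Bcl2 was not detectable at this depth.

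**Figure D2:**
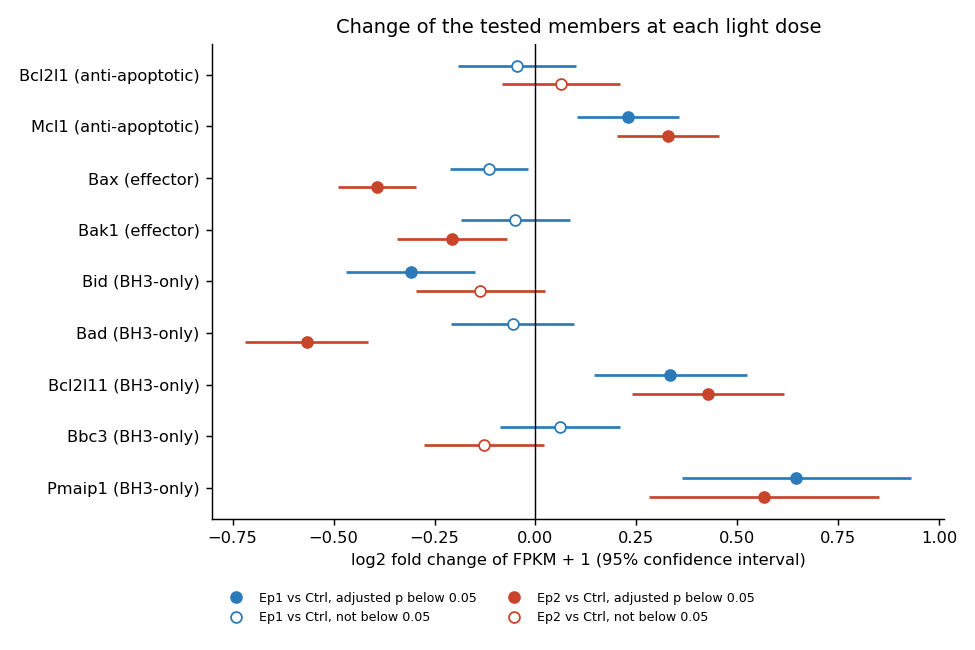
Log2 fold change of FPKM + 1 against Ctrl (horizontal axis) for the 9 tested members in Ep1 (blue) and Ep2 (red); points are limma estimates, lines their 95% confidence intervals, and filled points have an adjusted p below 0.05. Both comparisons use the same 3 Ctrl libraries; Bad moves from -0.06 in Ep1 to -0.57 in Ep2 and Bax from -0.12 to -0.39, while Pmaip1 lies at 0.65 and 0.57.

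The direct comparison of Ep2 with Ep1 separates the members that differed between light doses from those that did not pass. Of 9 members 3 passed, all lower in Ep2 (44.0% of all tested genes passed, 18.8% higher and 25.2% lower), with a median log2 fold change of -0.08 against -0.01 over all tested genes. Bad had a log2 fold change of -0.51 from Ep1 to Ep2 (95% CI -0.66 to -0.36, limma adjusted p = 0.00034). Bax followed with -0.28 (95% CI -0.37 to -0.18, limma adjusted p = 0.000834). Bbc3 passed narrowly at -0.19 (95% CI -0.34 to -0.04, limma adjusted p = 0.0438). Bax, Bak1, Bad and Bbc3 were lower in Ep2 with no overlap between the Ep2 and Ep1 libraries, against 54.4% of tested genes (24.1% higher, 30.3% lower). None of these 3 reached a log2 fold change of 0.6, which 5.90% of tested genes did.

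The 3 members that rose against Ctrl did not pass between the doses. The differences were 0.10 for Mcl1 (95% CI -0.03 to 0.23, limma adjusted p = 0.176), 0.09 for Bcl2l11 (95% CI -0.10 to 0.28, limma adjusted p = 0.399) and -0.08 for Pmaip1 (95% CI -0.36 to 0.20, limma adjusted p = 0.637). Bak1 differed by -0.16 (95% CI -0.29 to -0.02) and Bid by 0.17 (95% CI 0.01 to 0.33), with limma adjusted p-values of 0.0595 and 0.0740. Bcl2l1 differed by 0.11 (95% CI -0.04 to 0.26, limma adjusted p = 0.203). The split of calls depended on the scaling: centring each library on its median gene gave 4 calls, 2 higher (Mcl1 and Bid) and 2 lower (Bad and Bax), and Bbc3 was lost (adjusted p = 0.133). Leaving out Ep2 replicate 1 gave 5 calls, 2 higher (Mcl1 and Bid) and 3 lower (Bax, Bak1 and Bad). Bbc3 was also lost without Ep1 replicate 1, Ep1 replicate 3, Ep2 replicate 1 or Ep2 replicate 2 (adjusted p 0.0974 to 0.129), without a filter (0.105) and with voom (0.0922). The fits without a filter and with voom each called 2 members here, and the filter of 5 FPKM called 4, all lower, with Bak1 added.

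Set side by side by role, the summed RNA of the anti-apoptotic members was higher in both treated groups than in Ctrl. That of the effectors was lower in both treated groups, and lowest in Ep2. The sum of Bcl2, Bcl2l1 and Mcl1 in FPKM was 111 ± 3.60 for Ctrl, 127 ± 2.47 for Ep1 and 136 ± 7.68 for Ep2 (mean ± SD, n = 3), and the Ep1 and Ep2 libraries overlapped. The sum of Bax and Bak1 was 125 ± 3.05, 118 ± 2.28 and 102 ± 5.27 FPKM. Their ratio, effector to anti-apoptotic, was 1.07 to 1.17 in Ctrl, 0.893 to 0.960 in Ep1 and 0.688 to 0.825 in Ep2, with no overlap between the 3 groups. These sums were built from members already tested singly and are given without a test.

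The BH3-only members did not share this order. Their sum was 43.0 ± 1.53, 44.6 ± 1.82 and 40.5 ± 2.41 FPKM in Ctrl, Ep1 and Ep2, where the Ctrl libraries overlapped with those of both treated groups and the Ep2 libraries lay below those of Ep1. Over the 7 pro-apoptotic members, 2 rose and 1 fell in Ep1 (11.3% of all tested genes passed), and 2 rose and 3 fell in Ep2 (53.2% passed). Mcl1 remained 87.2 to 90.0% of the anti-apoptotic sum in Ep2. The ratio of Mcl1 to Bax, the most abundant member of each side in Ctrl, was 1.46 to 1.56 in Ctrl, 1.84 to 2.03 in Ep1 and 2.32 to 2.66 in Ep2.

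**Figure D3:**
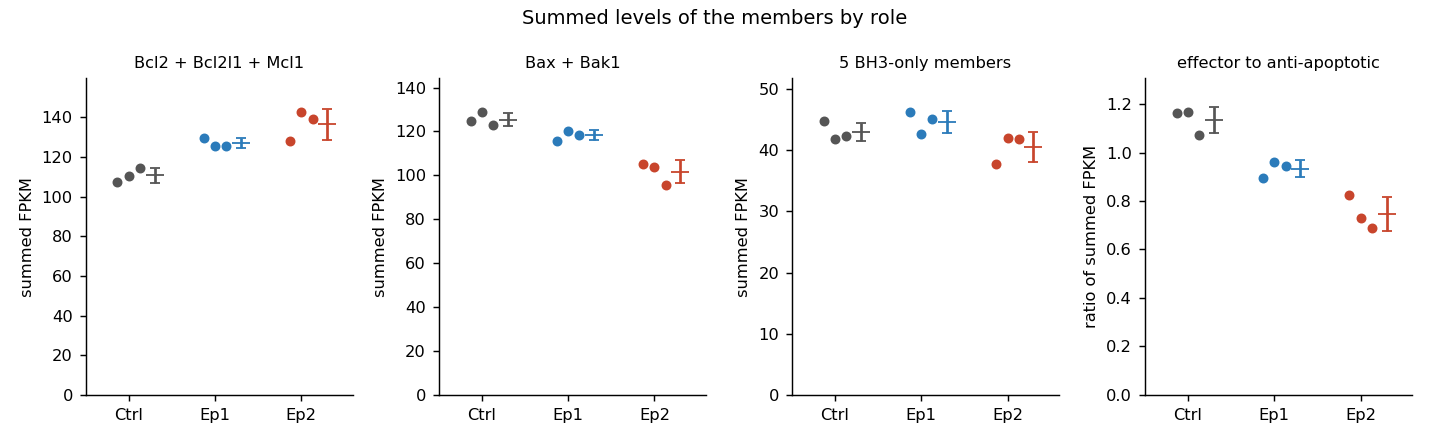
Summed FPKM of the anti-apoptotic members, the effectors and the BH3-only members, and the ratio of effector to anti-apoptotic sums (vertical axes from 0), in each library of Ctrl, Ep1 and Ep2; points are libraries and bars the mean ± SD. The ratio has a mean of 1.13 in Ctrl, 0.933 in Ep1 and 0.747 in Ep2, while the BH3-only sums of Ctrl overlap with those of Ep1 and Ep2.

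Among the rest of the BCL2 family, Bnip3 and Bnip3l rose and Bok fell at the higher dose. Of 15 further family genes 7 were expressed enough to test, and in Ep1 0 rose and 1 fell (11.3% of all tested genes passed). All 7 passed in Ep2, 4 higher and 3 lower, where 53.2% of all tested genes passed (23.9% higher, 29.3% lower), and their median log2 fold change was 0.34. Centring on the median gene, or fitting only the compared groups, gave 6 calls, 4 higher and 2 lower. The same split was found without Ctrl replicate 1, Ctrl replicate 2 or Ep2 replicate 3. Bnip3 and Bnip3l, mitophagy receptors that are induced under low oxygen, rose most, by 1.26 (95% CI 0.81 to 1.71, limma adjusted p = 0.001) and 0.71 (95% CI 0.58 to 0.83, limma adjusted p = 1.38e-05). Bnip3 read 22.3, 24.6 and 27.1 FPKM in Ctrl, 34.6, 23.7 and 24.4 in Ep1, and 79.5, 52.4 and 52.7 in Ep2, so that Ep2 replicate 1 stood above the other Ep2 libraries. Bnip3l did not pass in Ep1 (0.11, 95% CI -0.02 to 0.24). Bcl2l2, named after its values were seen, also rose in Ep2 (0.34, limma adjusted p = 0.00323). It was higher in Ep2 than in Ep1 (0.42, limma adjusted p = 0.00138) and did not pass in Ep1 against Ctrl (-0.08, limma adjusted p = 0.499).

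Bmf, a BH3-only gene whose product is tied to the cytoskeleton, moved in opposite directions at the lower and the higher light dose. It read 7.20, 7.04 and 7.67 FPKM in Ctrl, 4.94, 5.98 and 5.34 in Ep1 and 11.4, 10.5 and 8.69 in Ep2. The 3 groups did not overlap. Bmf fell in Ep1 (-0.37, limma adjusted p = 0.0357) and rose in Ep2 (0.43, limma adjusted p = 0.00395), and the difference between doses was 0.80 (95% CI 0.59 to 1.01, limma adjusted p = 0.000166). The Ep1 call was lost in 5 of 6 fits that left out a library, all but the fit without Ep1 replicate 2 (adjusted p up to 0.115). Bok, an effector-like relative of Bax and Bak1, fell in Ep2 (-0.51, 95% CI -0.65 to -0.38, limma adjusted p = 0.000109). Bcl2l10, Bcl2a1a, Bcl2a1b and Bcl2a1d were at 0 in every library, and Bik, Hrk, Bcl2l14 and Bcl2l15 stayed below 1 FPKM.

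Downstream of the family, 15 of 16 genes of mitochondrial release and the apoptosome were tested. In Ep1 1 rose and 1 fell, where 11.3% of all tested genes passed. In Ep2 3 rose and 6 fell, where 53.2% passed, and the median log2 fold change was 0.00. Both counts were near the shares over all genes. Htra2, a mitochondrial protease that neutralizes inhibitors of apoptosis once released, fell most, from 19.1, 18.7 and 19.0 FPKM in Ctrl to 15.3, 16.9 and 16.4 in Ep1 and 6.78, 6.91 and 7.52 in Ep2. The groups did not overlap, and the log2 fold change was -0.21 in Ep1 (limma adjusted p = 0.0342) and -1.30 in Ep2 (95% CI -1.42 to -1.19, limma adjusted p = 1.47e-06). Birc5, which encodes the mitotic protein survivin, fell in Ep2 (-0.79, 95% CI -0.93 to -0.65, limma adjusted p = 1.38e-05). Xiap, the main inhibitor of caspases, rose in Ep1 (0.29, limma adjusted p = 0.0144) and in Ep2 (0.44, limma adjusted p = 0.000162). In Ep1 the call of Htra2 was lost in 5 and that of Xiap in 3 of the 6 fits that left out a library. Centring on the median gene changed the split of the list in Ep2 from 3 higher and 6 lower to 5 and 6.

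Of 18 regulators of the members, all tested, 4 rose and 0 fell in Ep1 (11.3% of all tested genes passed, and 9 regulators in either direction had an unadjusted p under 0.05). In Ep2 8 rose and 4 fell (53.2% of all tested genes passed, 23.9% higher and 29.3% lower). Atf4, a transcription factor of the integrated stress response, had the smallest adjusted p in both, with a log2 fold change of 0.40 in Ep1 (limma adjusted p = 0.00538) and 0.45 in Ep2 (limma adjusted p = 5.86e-05), and it held in every fit that left out a library. Myc, a transcription factor of cell growth, rose in Ep2 by 0.69 (95% CI 0.51 to 0.86, limma adjusted p = 8.58e-05). Trp53, which encodes p53, fell in Ep2 by 0.54 on the log2 scale (limma adjusted p = 7.36e-05). Jun, part of the AP-1 factor, read 17.1, 19.0 and 17.4 FPKM in Ctrl, 48.1, 24.8 and 26.6 in Ep1, and 13.6, 13.8 and 18.6 in Ep2, and was lower in Ep2 than in Ep1 (-1.02, 95% CI -1.57 to -0.47, limma adjusted p = 0.00992). Against Ctrl, Jun passed neither in Ep1 (0.80, limma adjusted p = 0.0688) nor in Ep2 (-0.22, limma adjusted p = 0.463). Ep1 replicate 1 was the highest library for Jun, as it was for Pmaip1. Fbxw7, part of a ubiquitin ligase for MCL1, had the smallest adjusted p among the lower regulators in Ep1 and did not pass (-0.10, 95% CI -0.24 to 0.04). In Ep2 Fbxw7 was lower and passed (-0.20, limma adjusted p = 0.0211). Centring on the median gene gave 9 higher and 2 lower in Ep2. Without a filter, and with the replicate number as a block, 6 regulators were higher and 4 lower in Ep2. Leaving out a library gave 8 to 13 calls in Ep2 and 2 to 5 in Ep1.

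Bax, Bbc3, Pmaip1 and Bid are known p53 targets, and 16 other p53 targets were set beside them, of which 13 were tested. In Ep1, where 11.3% of all tested genes passed, 1 rose (Tnfrsf10b, a death receptor for TRAIL, 0.21, limma adjusted p = 0.0283) and 1 fell (Phlda3, an inhibitor of AKT signaling, -0.31, limma adjusted p = 0.0340). In Ep2 1 rose and 8 fell (53.2% of all tested genes passed, 29.3% lower), with a median of -0.39 beside -0.03 over all tested genes. Mdm2, a p53 target listed among the regulators because its product degrades p53, went the other way: it rose in Ep1 (0.35, limma adjusted p = 0.00704) and in Ep2 (0.28, limma adjusted p = 0.00107), kept both calls in all 13 alternatives, and was named after its values were seen. Phlda3 fell furthest (-0.96, 95% CI -1.13 to -0.79, limma adjusted p = 1.44e-05), followed by the nuclease gene Aen (-0.60, limma adjusted p = 0.000114). Gadd45a, a growth arrest gene, rose (0.46, limma adjusted p = 0.00339). Gdf15, a stress cytokine, and Eda2r, a receptor of the TNF receptor family, were lower in Ep2 than in Ep1 by -0.95 (limma adjusted p = 0.00152) and -0.69 (limma adjusted p = 0.000666). Against Ctrl, Ep2 was lower by -0.54 for Gdf15 and -0.45 for Eda2r (limma adjusted p = 0.0187 and 0.00503), and the Gdf15 call was lost without Ctrl replicate 1, Ctrl replicate 2 or Ep2 replicate 1 (adjusted p 0.0601 to 0.0649). The Ep1 calls of Phlda3 and Tnfrsf10b were each lost in 5 of the 6 fits that left out a library.

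**Figure D4:**
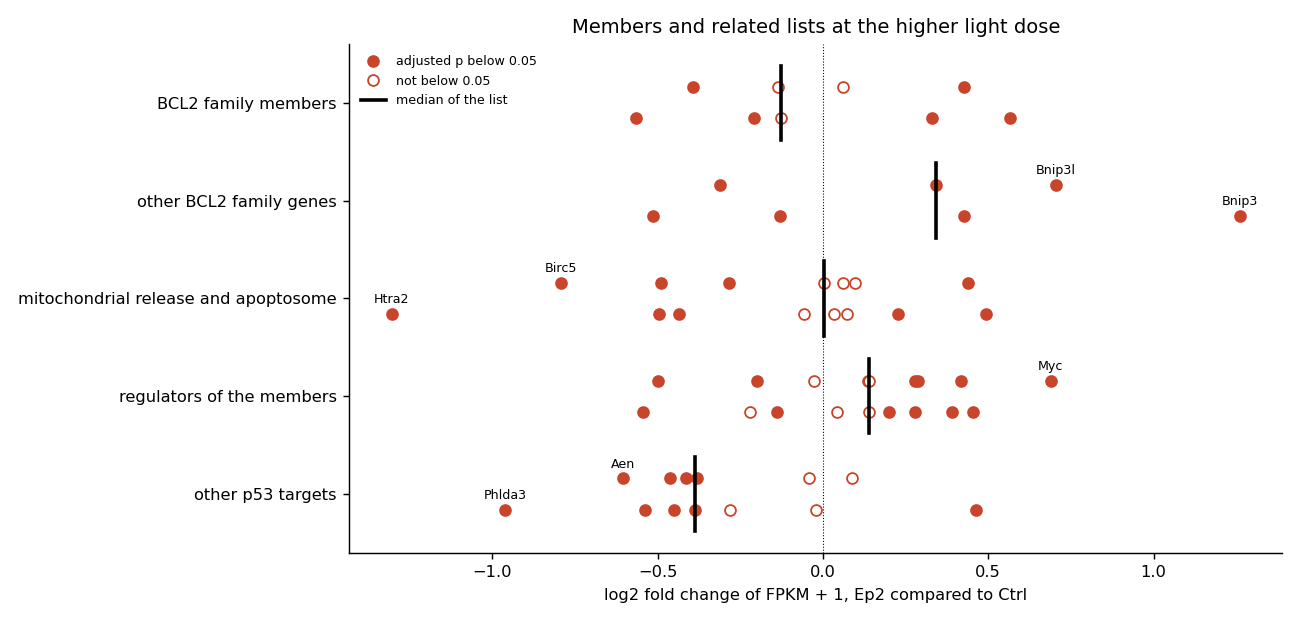
Log2 fold change of FPKM + 1 in Ep2 against Ctrl (horizontal axis) for each tested gene of the members and of the 4 wider lists (rows); filled points have a limma adjusted p below 0.05, the vertical bar is the median of the list, and genes beyond 0.6 in either direction are named. The medians are -0.13 for the members, 0.34 for other BCL2 family genes, 0.00 for mitochondrial release, 0.14 for regulators and -0.39 for other p53 targets.

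The genes whose pattern was most like that of the 3 members with the widest range of group means were sought over the 9 libraries, which share groups and depth, so the correlations are descriptive. For Pmaip1 these were the transcription factor genes Klf4 (Pearson r = 0.991) and Nr4a1 (r = 0.986) and the small GTPase gene Rhob (r = 0.984). All were higher in Ep1 and Ep2 than in Ctrl, as Pmaip1 was: Nr4a1 had group means of log2(FPKM + 1) of 2.46, 3.89 and 3.63 in Ctrl, Ep1 and Ep2. For Bad they were Eci2, an enzyme of fatty acid oxidation (r = 0.990), Acsl6, an acyl-CoA synthetase (r = 0.990), and G3bp1, a stress granule protein (r = 0.989), each with its lowest mean in Ep2. For Bcl2l11 they were the transcription factor gene Glis3 (r = 0.987), the splicing regulator Ptbp2 (r = 0.983) and the corepressor Tle4 (r = 0.983), whose means were lowest in Ctrl and highest in Ep2.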

How the data were processed

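Messenger RNA of b.End3 cells was sequenced as paired reads in 9 libraries (3 each of Ctrl, Ep1 and Ep2, grouped by the labels). The authors deposited FPKM values per gene for each library and 1 joint table, and the 9 single tables equal the joint one. The submitters' processing notes name Bowtie 0.12.2 and mm8, and the study's methods name GRCm39. The listed gene positions, however, overlap RefSeq genes of GRCm38.p6 for 99.9% of 37624 genes matched by name. They overlap GENCODE genes of GRCm39 for 10.9% of 50319 genes matched by identifier. The counting tool is not given in the sources used here. FPKM multiplied by gene length and a library factor gave whole fragments (within 0.05) for all genes, at 16240688 to 19509225 fragments a library. Columns of the authors' own comparisons were not used.

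Genes with at least 1 FPKM in at least 3 libraries (11727) were tested on log2(FPKM + 1) with limma 3.58.1 in R 4.3.3 (trend and robust variance, 1 fit of all 9 libraries), with Benjamini-Hochberg adjustment and a threshold of 0.05. Intervals are 95% and limma's own. The fit was tested on simulated data. Alternatives were centring on the median gene, no filter, a filter of 5 FPKM, a pseudocount of 0.1, the replicate number as a block, only the compared groups, voom on genes with 10 or more fragments in 3 libraries, and leaving out each library. Named genes were all 10 members and, of 4 wider lists, the genes past the adjusted p with a log2 fold change beyond 0.6 in either direction in any comparison, plus those with the smallest adjusted p in each direction in Ep1 and Ep2 against Ctrl; Bcl2l10, the Bcl2a1 genes, Bik, Hrk, Bcl2l14 and Bcl2l15 were named as untested. The genes most like Pmaip1, Bad and Bcl2l11 were the 3 with the highest Pearson r for each of the 3 members with the widest range of group means. The members, lists and motifs were chosen with earlier results of these data known. Promoter windows came from RefSeq (GRCm38.p6). Python 3.11.15 and pandas 2.3.3 were used for the descriptions.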

Additional observations from a re-analysis of the deposited data

How the results depend on the processing

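Of the members' calls in Ep2 compared to Ctrl, those of Bax, Bad, Mcl1, Bcl2l11 and Pmaip1 held under every alternative that tested them, and the number of members called there was 5 to 7 when a library was left out. In Ep1 compared to Ctrl the count was 4 in limma's test and with voom, 0 without a filter (5 members under an unadjusted p of 0.05) and 0 to 2 when a library was left out, where fewer samples were tested. In Ep2 compared to Ep1 the count was 2 to 5 when a library was left out, and 5 without Ep2 replicate 1. Directions reversed in 2 cases, neither of them called: the log2 fold change of Bcl2l1 in Ep2 compared to Ctrl ranged from -0.0097 (without Ep2 replicate 1) to 0.11 when a library was left out, and that of Pmaip1 in Ep2 compared to Ep1 from -0.19 to 0.063 (without Ep1 replicate 1); the cause was not tested. The filter of 5 FPKM left 8 members, without Pmaip1. The replicate numbers did not pair the samples (correlations of -0.06 to 0.07 over 9 same-numbered pairs, 0 over 0.1). With the replicate number as a block, 3, 6 and 3 members passed in Ep1 compared to Ctrl, Ep2 compared to Ctrl and Ep2 compared to Ep1: Bid in Ep1 (adjusted p = 0.0547) and Bbc3 in Ep2 compared to Ep1 (0.0707) lost their calls, and Bak1 in the latter gained one (0.0454). No alternative moved the median of all genes by more than 0.1 on the log2 scale. Among the named genes in the wider lists, every Ep2 call that was followed through the alternatives held, except that of Gdf15. The Ep2 calls of Fbxw7 and Bcl2l2 were not followed singly. Of the 6 Ep1 calls picked by the naming rule, 5 were lost in at least 3 alternatives, Atf4 being the exception. With 3 libraries a group and 104 to 259 fragments for Pmaip1 and 35 to 62 for Bcl2, small changes of these genes were not resolved.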
